A study of Mus musculus with 24 samples.

Results

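The regions described here are long introns, those of at least 50 kb in the main coding transcript of a protein-coding gene, and the way in which RNA tags were spread along them. The main transcript of a gene was the one with the longest coding region in GENCODE M1 (mouse genome mm9), only autosomes were used, and bases that belong to any annotated exon were removed from the introns. This rule gave 2582 introns in 1541 genes, out of 15281 introns of at least 10 kb in the 21410 main transcripts. Of these long introns 1697 were 50 to 100 kb, 680 were 100 to 200 kb and 205 were over 200 kb in length, with a median of 79.7 kb, and 895 (34.7%) were the first intron of their gene. The 2 introns nearest to the length limit among those with enough tags were Sfmbt1 intron 1 at 50087 bases, with a density of 0.475 RPKM (tags scaled to length and library size) in the FH Ribo-Zero library, and AI480653 intron 3 at 49979 bases, with 0.204.

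The tags came from total RNA from which ribosomal RNA had been depleted, so that unspliced precursor RNA was sequenced next to mature RNA. The CCE samples were feeder-independent 129/SvEv mouse embryonic stem cells, differentiated by withdrawal of LIF and 0.266 µM retinoic acid for 5 days. Fetal head (FH) samples were whole heads of FVB/N mice at 14.5 dpc, a mixture of tissues in which brain is a large part. The RiboMinus Kit gave 7 cDNA preparations, 4 of CCE and 3 of FH, which were made from hydrolysed RNA (CCE1h, CCE2h, FH1h, FH2h) or from sheared cDNA (CCE1s, CCE2s, FH1s), and each preparation was sequenced at 2 locations, Vienna-IMP and Nijmegen. By the study's methods hydrolysis and shearing were applied to the same depleted RNA, so the preparations with the letters h and s of one number are not independent, and 4 against 3 preparations stand for 2 against 2 depleted samples, which allow no permutation p under 0.333. FH2h alone had 2 rounds of depletion. The Ribo-Zero Kit was used on total RNA of a biological replicate, which was hydrolysed after depletion, with 1 library per tissue sequenced at Vienna-CeMM. The CCE preparations were technical replicates and the sources used here name no separate animals behind the FH preparations, so all p-values below measure the spread between cDNA preparations, which may be technical. With the preparations of one depleted sample summed, the slope difference between tissues described below was 0.0301 (p = 0.333, exact permutation test).

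The 14 RiboMinus libraries held 920424 to 2473448 unique tags, and the Ribo-Zero libraries held 28708715 (CCE) and 48426051 (FH). Markers fixed for the report separated the tissues in RiboMinus: 13 of 14 tested extra-embryonic endoderm genes had lower exon RPKM in FH and all 10 neural genes had higher. Of all genes tested, 34.9% were lower and 19.9% higher in FH. In Ribo-Zero, Sox2 alone among the neural genes was lower in FH, with 21.4 RPKM against 42.7 in CCE. Of 14 markers of other head tissues such as cartilage, muscle, skin and blood 13 were higher in FH, so FH tags came from many cell types. Their summed RPKM was 1691 in FH RiboMinus against 70.7 in CCE. A large part of the FH sum came from 1 globin gene, Hbb-y, with 1023. The hydrolysed CCE preparations changed order between locations, for which the cause was not tested: long introns took 3.38% and 2.14% of the tags of CCE1h and CCE2h at Vienna-IMP, but 2.01% and 3.64% at Nijmegen. Results were therefore also computed with the hydrolysed numbers crossed at Nijmegen, which left the slope difference between tissues described below at 0.0280 in place of 0.0287.

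A polymerase that transcribes a long intron needs a long time to reach its end, and during that time the unfinished RNA already holds the 5′ part of the intron but not the 3′ part. Where an intron is cut out soon after its 3′ splice site has been made, the RNA of an intron is found mostly in unfinished transcripts, and its density falls from the 5′ to the 3′ end and returns to a high level at the start of the next intron. Where introns instead stay in finished transcripts for long, unfinished RNA adds little to such a fall. The paper reports that long transcripts, coding and non-coding, also lose tags gradually towards their 3′ end with either way of fragmentation. Whether that loss adds to the fall along introns was not tested. Some very long introns are known to be removed in several pieces, by recursive splicing, at inner sites where the end of an acceptor (a run of pyrimidines and AG) is directly followed by a new donor (GTAAGT). These sites are known in neural genes with long introns, and within such an intron the density falls and returns to a high level at the site.

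The ends of the long introns had the usual letters: 2546 of 2582 began with GT and 2567 ended with AG, while 19.4% began with GTAAGT and 18.2% with GTGAGT. The first and last 30 bases of 2 introns that recur below show the pair of sites that bound each region, with the GT and the AG in capitals. Nfia intron 2 (chr4:97450305-97623064, plus strand) lies in the gene of a nuclear factor I transcription factor, and Cadm1 intron 1 (chr9:47338589-47596053, plus strand) in that of a cell adhesion molecule of the immunoglobulin family.

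Nfia intron 2, first 30 bases: GTaagtgtgctgggaagaactccttccgct

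Nfia intron 2, last 30 bases: aattccggctgtattctttatgtttttcAG

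Cadm1 intron 1, first 30 bases: GTaggttgtgggcacccgcggattggtccc

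Cadm1 intron 1, last 30 bases: catctgacctttctctttcttttcttaaAG

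Within some introns letters like those of an acceptor and a donor stood back to back, and whether they are spliced was not tested. The following 30-base stretches all lie in the sense strand of their gene. They are the inner places at which the density in FH Ribo-Zero rose most among those with a pyrimidine-rich stretch, and one with fewer pyrimidines in Hs6st3. In the other pools the order differed. The capitals mark the letters AGGTAAGT, the AG that would end one piece and the GTAAGT that would begin the next. These 8 letters are frequent: they occurred in 4.13% of 68065 windows of 4 kb of the long introns in the sense strand, and their reverse complement in 5.85%.

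Cadm1 intron 1, chr9:47441987-47442016, plus strand: ttttctctcctctttcttttAGGTAAGTga

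Robo2 intron 2, chr16:74151921-74151950, minus strand: tggctcttcatttcttcttcAGGTAAGTgt

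Ank3 intron 1, chr10:69053113-69053142, plus strand: tctctgttttatttttccttAGGTAAGTtg

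Ank3 intron 1, chr10:69057776-69057805, plus strand: tttctctctttttcttttacAGGTAAGTgt

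Cdh4 intron 2, chr2:179362477-179362506, plus strand: aaacctttcctcttattcctAGGTAAGTga

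Tpd52l1 intron 1, chr10:31146701-31146730, minus strand: tttcttcccatacctcccacAGGTAAGTtc

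2610528E23Rik intron 1, chr16:57445097-57445126, minus strand: gttttctgtctcttacttttAGGTAAGTcg

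Hs6st3 intron 1, chr14:119936850-119936879, plus strand: tgacttctgtcccatatctcAGGTAAGTag

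Long introns took a larger part of the FH transcriptome than of the CCE transcriptome. Their share of unique tags was 2.86% in CCE1h, 2.99% in CCE2h, 1.27% in CCE1s and 1.96% in CCE2s, and 10.7% in FH1h, 9.95% in FH2h and 5.89% in FH1s. The tissues did not overlap and the FH mean was 3.89-fold higher (8.83% ± 2.57, SD, n = 3, against 2.27% ± 0.810, n = 4), with p = 0.0286 in the exact two-sided permutation test of preparations, the smallest value that 4 against 3 preparations allow. In both tissues the sheared preparations had the lowest shares, and the Ribo-Zero libraries gave 2.87% (CCE) and 13.7% (FH). Mitochondrial tags made up 8.23% (CCE) and 4.54% (FH) of the unique tags of the Ribo-Zero libraries and none of those after RiboMinus, so shares and RPKM of the kits rest on different totals. In these bulk samples, fewer cells of a type and less RNA per cell cannot be told apart.

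The difference was also present within the intron RNA. Long introns held 39.8% ± 0.804 (SD, n = 4) of all tags in introns of at least 10 kb in CCE and 58.4% ± 1.55 (n = 3) in FH (p = 0.0286, exact permutation test). Their tag density was 0.566 ± 0.0297 of that of 10 to 20 kb introns in CCE preparations and 1.26 ± 0.0974 of it in FH preparations, again without overlap (p = 0.0286, exact permutation test). In the RiboMinus pools, which sum the libraries of a tissue, the density fell with intron length in CCE, from 0.149 RPKM in 10 to 20 kb introns to 0.0707 in introns over 200 kb. In FH it was 0.268 in 10 to 20 kb introns, 0.247 in 20 to 50 kb and 0.456 in introns over 200 kb, so that it was lowest in the second class and rose from there. The FH Ribo-Zero library had the same order, with 0.400, 0.364 and 0.658. The FH to CCE ratio of density was therefore 1.80 for 10 to 20 kb introns, 1.94 for 20 to 50 kb, 2.80 for 50 to 100 kb, 4.47 for 100 to 200 kb and 6.45 for introns over 200 kb. The Ribo-Zero libraries gave ratios of 1.87 and 7.81 at both ends of this series.

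**Figure D1:**
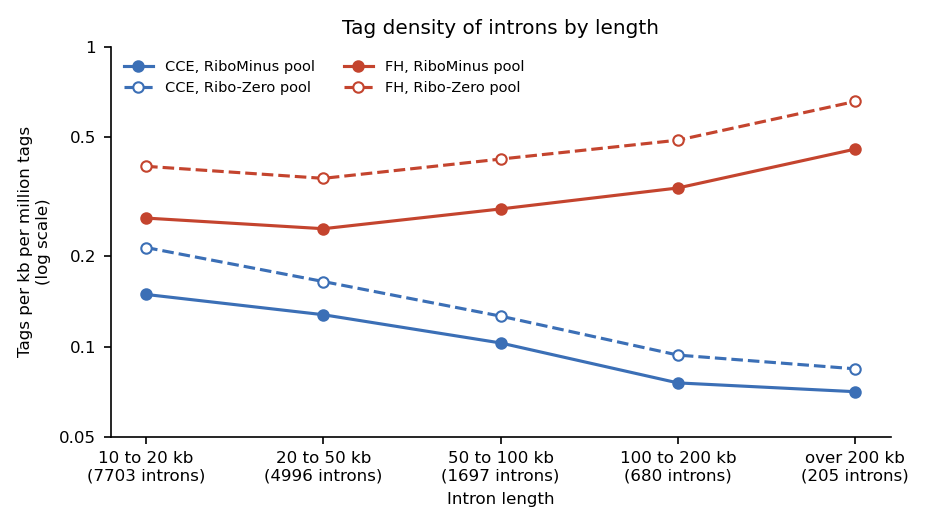
Tag density (RPKM over exon-free sequence, log axis) in 5 classes of intron length, for the pools of CCE (blue) and FH (red) libraries after RiboMinus (filled, solid) and Ribo-Zero (open, dashed). In the RiboMinus pools CCE falls from 0.149 to 0.0707, while FH goes from 0.268 to 0.247 in the second class and then rises to 0.456, and the number of introns in each class stands under the axis.

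To compare the shape of the density apart from its level, each intron was divided into 10 bins of equal length from 5′ to 3′, and the density in each bin was divided by the intron's mean density in its tissue, so that all introns weighed alike. This was done for introns with at least 50 tags in each of 4 pools (tissue by depletion kit) and enough exon-free sequence in every bin, which left 1069 long introns in 792 genes. In total 1103 long introns reached 50 tags in CCE and 2040 in FH after RiboMinus, and 1497 and 2424 after Ribo-Zero, while 251, 44, 113 and 25 had no tag. The introns compared are thus those that reached this minimum in both tissues, which does not show that their gene was transcribed in both. They had a median of 155 (CCE) and 337 (FH) tags after RiboMinus, and of 429 and 2328 after Ribo-Zero.

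Tag density fell along long introns in every preparation. In CCE it went from 1.83 ± 0.0866 (SD, n = 4 preparations) times the intron mean in the first bin to 0.983 ± 0.0321 in the fifth and 0.484 ± 0.0240 in the last. In FH it went from 1.65 ± 0.0825 (n = 3) to 1.04 ± 0.00412 and 0.568 ± 0.0265. The last bin thus held 0.265 of the density of the first in CCE and 0.345 in FH. The Ribo-Zero libraries gave 1.84 and 0.536 for the first and last bins in CCE, and 1.66 and 0.551 in FH.

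The slope of this profile is its change per bin as a share of the mean density, and a straight fall to 0 at the 3′ end would give -0.2. It was -0.128 in CCE1h, -0.128 in CCE2h, -0.127 in CCE1s and -0.135 in CCE2s. It was -0.100 in FH1h, -0.0962 in FH2h and -0.106 in FH1s. All 7 values were below 0 (p = 0.0156, exact two-sided sign-flip test over preparations, the smallest that 7 allow). FH was less steep than CCE without overlap, with -0.101 ± 0.00488 (SD, n = 3) against -0.129 ± 0.00403 (n = 4), a difference of 0.0287 (p = 0.0286, exact permutation test, the smallest possible). The Ribo-Zero libraries had -0.124 (CCE) and -0.108 (FH), a difference of 0.0162 ± 0.00132 (95% interval, counting error only) and with no replicate check.

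The background between genes differed between libraries and touches this comparison. Regions at least 50 kb from any gene had 0.0334 RPKM in the CCE RiboMinus pool and 0.0279 in FH RiboMinus, against 0.0858 and 0.346 in long introns. In Ribo-Zero they had 0.00644 (CCE) and 0.0177 (FH). With each tag position counted once, the background was lower and the order of the RiboMinus pools turned, with 0.00360 in CCE and 0.0127 in FH. With tag positions counted once, the slope difference between tissues was 0.0294 (p = 0.0286, exact permutation test). With each library's background subtracted, repeated positions included, the slopes became -0.186 in CCE and -0.107 in FH and the difference was 0.0791 (p = 0.0286, exact permutation test). Here only introns with a density above a multiple of the background in every pool were kept. The change thus mixes the subtraction with a different set of introns. With tags summed over introns, so that the most transcribed introns weighed most, the Ribo-Zero difference was 0.000688 and the RiboMinus difference 0.0173.

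**Figure D2:**
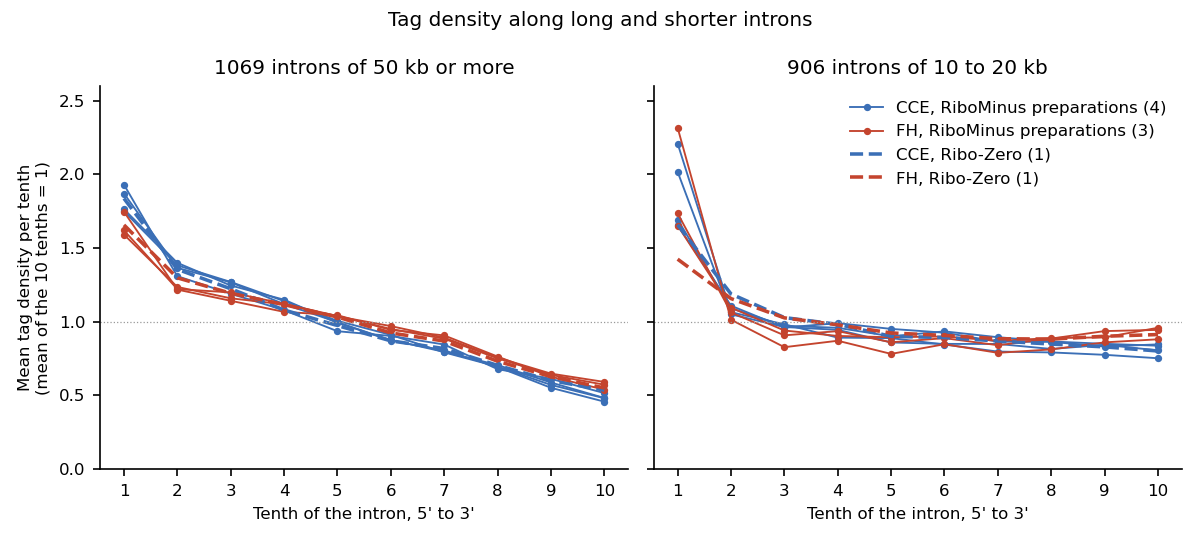
Mean tag density in each bin of the intron from 5′ to 3′, as a multiple of the mean of the 10 bins, for introns of 50 kb or more (left) and of 10 to 20 kb (right). Each thin line is 1 RiboMinus preparation of CCE (blue) or FH (red) and each dashed line 1 Ribo-Zero library. Long introns fall over their whole length, from 1.83 to 0.484 in CCE and from 1.65 to 0.568 in FH, while 10 to 20 kb introns fall mostly between the first and second bin.

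Single bins differed between tissues on both sides of the middle of long introns. Each profile is scaled to its own mean, so a less steep slope by itself lowers early bins and raises late ones. The values per bin thus restate the slope difference in part. FH was lower than CCE in the second bin, with 1.23 ± 0.00959 (SD, n = 3) against 1.36 ± 0.0393 (n = 4), and higher in bins 5 to 8 and 10 (p = 0.0286 each, exact permutation test, Benjamini-Hochberg adjusted p = 0.0476 over 10 bins). In the last bin the values were 0.568 ± 0.0265 in FH and 0.484 ± 0.0240 in CCE. The first and ninth bins did not overlap between tissues either but had p = 0.0571 (adjusted p = 0.0714, exact permutation test). Bins 3 and 4 overlapped between tissues.

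The fall was steeper in long than in shorter introns, among those that passed the limits. A fixed minimum of 50 tags asks for a higher density in shorter introns: it left 906 of 7703 introns of 10 to 20 kb and 1069 of 2582 long ones. The classes may thus differ in level as well as in length. Among 906 introns of 10 to 20 kb that passed the same limits, the slope was -0.0758 ± 0.0184 in CCE and -0.0619 ± 0.0212 in FH, and each preparation was steeper in its long introns, by 0.0473 ± 0.0183 in the mean (SD, n = 7, p = 0.0156, exact sign-flip test). The short introns fell mainly at their 5′ end: in CCE the first bin had 1.89 ± 0.266, the second 1.08 ± 0.0264 and the last 0.810 ± 0.0425, and in FH the density rose again after the seventh bin, from 0.833 ± 0.0412 to 0.928 ± 0.0416. Slopes of CCE were -0.102 for 20 to 50 kb, -0.122 for 50 to 100 kb, -0.141 for 100 to 200 kb and -0.146 for over 200 kb. Slopes of FH were -0.0762, -0.0924, -0.114 and -0.124 in the same order. The slope thus became steeper from class to class in both tissues, and in introns over 200 kb the last bin held 0.216 of the density of the first in CCE and 0.199 in FH.

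FH was less steep in each length class, but not beyond the spread in all. The difference from CCE was 0.0301 for 50 to 100 kb and 0.0271 for 100 to 200 kb (p = 0.0286 each, exact permutation test). It was 0.0224 for introns over 200 kb (p = 0.0571), 0.0256 for 20 to 50 kb (p = 0.114) and 0.0139 for 10 to 20 kb (p = 0.371, all exact permutation tests). In Ribo-Zero the slopes of CCE and FH were -0.0695 and -0.0449 for 10 to 20 kb and -0.119 and -0.0990 for 50 to 100 kb. For introns over 200 kb they were -0.138 and -0.132, so there the tissues were closest in the longest class. The slope of long minus 10 to 20 kb introns was not shown to differ between tissues (0.0148, p = 0.314, exact permutation test, adjusted p = 0.400 over 4 such comparisons).

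**Figure D3:**
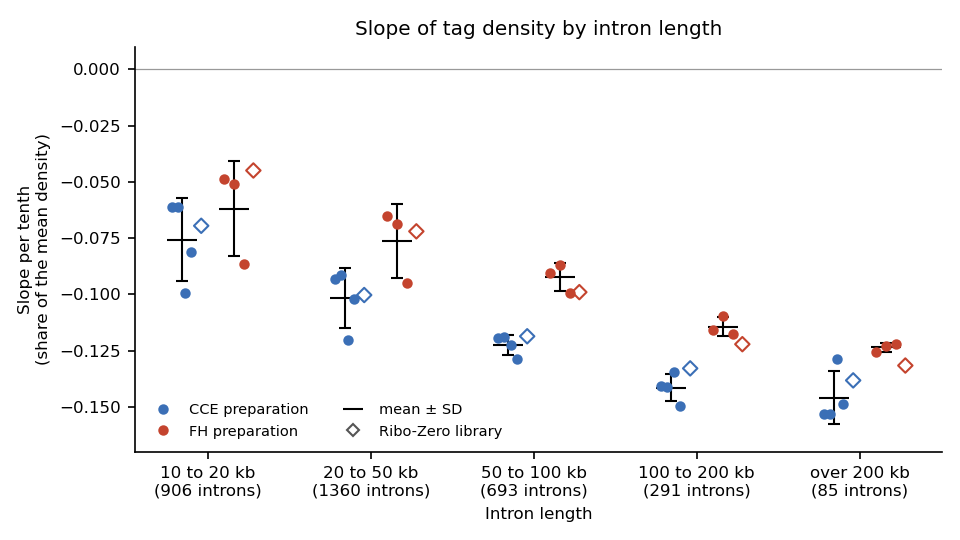
Slope of tag density per bin (share of the mean density) by intron length. Points are RiboMinus preparations of CCE (blue, 4) and FH (red, 3), black bars their mean ± SD, and open diamonds the Ribo-Zero libraries. Long introns of CCE lie between -0.122 and -0.146 in the class means and those of FH between -0.0924 and -0.124, below the class means of shorter introns in the same tissue.

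The position of the intron in the gene and transcript starts inside it went with the slope. In RiboMinus the 453 first introns were steeper than the later ones, with slopes of -0.148 ± 0.00653 (CCE) and -0.109 ± 0.00946 (FH), by 0.0253 ± 0.0119 in the mean (SD, n = 7 preparations, p = 0.0156, exact sign-flip test). In FH the 223 second introns had -0.0932 and the 393 later ones -0.0948. In Ribo-Zero the first, second and later introns had -0.139, -0.109 and -0.115 in CCE, but -0.110, -0.106 and -0.107 in FH. The 419 introns with an annotated transcript start on the same strand inside them were less steep (-0.117 in CCE and -0.0914 in FH) than the 650 without one (-0.137 and -0.107), by 0.0182 ± 0.00370 (SD, n = 7, p = 0.0156, exact sign-flip test). Without such introns the difference between tissues was 0.0305 (p = 0.0286, exact permutation test). Introns overlapped by another gene had slopes of -0.132 and -0.103, close to the -0.128 and -0.0998 of introns without one.

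The slope of long introns was not shown to differ with the way the RNA was fragmented. Hydrolysed preparations had a slope of -0.113 ± 0.0172 (SD, n = 4) and sheared ones -0.123 ± 0.0152 (n = 3), a difference of 0.00962 (p = 0.514, exact permutation test). Within CCE the difference was 0.00315 and within FH 0.00771, where 1 sheared preparation allows no p under 0.333. In introns of 10 to 20 kb the sheared preparations were steeper in both tissues, which was not tested. Their slopes were -0.0995 (CCE1s), -0.0812 (CCE2s) and -0.0864 (FH1s). The hydrolysed ones had -0.0611 (CCE1h), -0.0613 (CCE2h), -0.0485 (FH1h) and -0.0507 (FH2h). This difference is part of the spread in the values and tests of 10 to 20 kb introns above. Sequence that a 36-base tag can reach was spread evenly, as 89.6% to 93.3% of exon-free bases per bin began a 36-mer that occurs once in the genome.

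Single introns followed the mean profile with few exceptions. The slope was below 0 in 1004 of the 1069 introns (93.9%) in the CCE RiboMinus pool and 995 (93.1%) in its Ribo-Zero library, and in 974 (91.1%) and 1012 (94.7%) for FH. In all 4 pools 917 introns fell and 22 rose. The slope of an intron in CCE and in FH had r = 0.655 (Spearman's rho = 0.633) in RiboMinus and r = 0.713 (rho = 0.710) in Ribo-Zero over the 1069 introns, which share their sequence and, within a tissue, their library. In RiboMinus 25.3% of the introns were less steep in CCE than in FH, and in Ribo-Zero 31.9%. Longer introns had slightly lower slopes, with rho = -0.219 to length in CCE RiboMinus and -0.262 in FH Ribo-Zero, while tags per kb had rho between -0.101 and 0.0801.

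Among the 22 introns that rose in all 4 pools, 18 held an annotated start, and rises in a single pool were also more frequent with one (FH Ribo-Zero 9.79% of introns with a start and 2.46% without). Nedd9 intron 2 had 2 annotated starts inside and rose from 1.61 tags per kb in the first bin to 31.3 in the last in FH Ribo-Zero. Among those of the 22 without one, the steepest rise in both RiboMinus pools was that of Kcnq1 intron 10, which was chosen here after its values were seen. Kcnq1 encodes a potassium channel and is known to host the imprinted antisense macro ncRNA Kcnq1ot1, and the tags do not tell the strands apart. Its tag density rose from 0.456 to 19.7 tags per kb between the first and last bins in CCE RiboMinus and from 2.13 to 46.8 in FH RiboMinus, with slopes of 0.381 in both. In FH Ribo-Zero its slope was 0.282, below the 0.313 of Ulk4 intron 35, which held no annotated start either. The density was higher still in the first bin of Kcnq1 intron 11, with 38.1 (CCE) and 88.4 (FH) tags per kb in RiboMinus.

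The longest introns that passed the limits showed both patterns. Hs6st3 intron 1 (chr14:119538341-120268107, 730 kb), in the gene of a heparan sulphate 6-O-sulfotransferase, had slopes of -0.0758 (CCE RiboMinus), -0.0604 (FH RiboMinus), -0.170 (CCE Ribo-Zero) and -0.102 (FH Ribo-Zero). Wwox intron 8 (chr8:117236152-117875537, 639 kb) and Fhit intron 5 (chr14:10702690-11254008, 551 kb) lie in genes that span common fragile sites. The density of Wwox intron 8 fell from 1.83 to 0.109 tags per kb in CCE RiboMinus and from 3.99 to 0.891 in FH RiboMinus, and that of Fhit intron 5 fell from 0.726 to 0.0917 and from 1.36 to 0.238. Pde4d intron 1 (chr13:109907275-110530594, 623 kb), in the gene of a cAMP phosphodiesterase with many promoters, held 8 annotated starts and rose in all pools. The longest of all, intron 1 of Gm20388 (4384 kb on chromosome 8), belongs to a predicted gene model that spans many others, held 160 annotated starts, and had slopes from -0.0258 (CCE RiboMinus) to 0.0830 (CCE Ribo-Zero).

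The introns with the most tags per kb fell steeply in most cases. In FH these included Nfia intron 2, Nfib intron 2, Cdh11 intron 1 (a cadherin of mesenchyme) and Celf2 intron 1 (an RNA-binding splicing regulator). Nfia intron 2 had 4.57 RPKM in the FH RiboMinus pool against 0.598 in CCE, and fell to 0.129 of its first bin in FH and 0.144 in CCE. Nfib intron 2 had 4.06 against 0.643, with slopes of -0.135 (FH) and -0.155 (CCE). In CCE they included the first introns of Actn1 (alpha-actinin) and Rbpms (an RNA-binding protein), Zmiz1 intron 6 and Ssbp3 intron 4. Zmiz1 intron 6 had a slope of -0.0166 in CCE RiboMinus, but of -0.0782 in CCE Ribo-Zero.

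The density returned at the start of the next intron. In 271 pairs of neighbouring introns, where the upstream one was a long intron and the downstream one had at least 10 kb, the first bin of the downstream intron was compared with the last bin of the upstream one. The log2 step was 1.54 in CCE1h, 1.61 in CCE2h, 1.37 in CCE1s and 1.53 in CCE2s, and 1.50 in FH1h, 1.49 in FH2h and 1.51 in FH1s. Its mean was 1.51 ± 0.0711 (SD, n = 7, p = 0.0156, exact sign-flip test). These steps use densities summed over the 271 pairs, so pairs with many tags weigh most. This summed step was not shown to differ between FH (1.50 ± 0.00985, n = 3) and CCE (1.52 ± 0.0999, n = 4, p = 0.83, exact permutation test). The Ribo-Zero libraries had 1.41 (CCE) and 1.62 (FH). The median step of single pairs was 1.71 (CCE) and 1.34 (FH) in RiboMinus, and 1.65 and 1.48 in Ribo-Zero. This median was thus lower in FH with both kits, which was not tested.

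Single pairs stepped up in 255 of 271 cases (94.1%) in CCE RiboMinus, 247 (91.1%) in FH RiboMinus, and 252 (93.0%) in each Ribo-Zero library. Gpc6, which encodes a glypican, had 17.2 tags per kb in the last bin of intron 1 and 128 in the first bin of intron 2 in FH Ribo-Zero, a log2 step of 2.89, and steps of 2.59 to 2.68 in the other pools. Auts2, a gene of neural development, went from 41.8 to 190 tags per kb between introns 1 and 2 in the same library, a log2 step of 2.18. Between introns 4 and 5 of this gene it was 0.04 (CCE) and 0.28 (FH) after RiboMinus, and -0.76 (CCE) and -0.18 (FH) after Ribo-Zero. Between introns 5 and 6 it lay between -0.54 and -0.01 in the 4 pools, and between introns 6 and 7 it was again 1.71 to 2.59. Auts2 intron 5 is also one of the 22 introns that rose from 5′ to 3′. The pairs of Nfia (introns 2 and 3) and Efna5 (introns 1 and 2), an ephrin ligand, had steps of 0.59 and 1.10 in FH Ribo-Zero. In the other pools the steps of Nfia were 0.89 (CCE RiboMinus), 0.52 (FH RiboMinus) and -0.39 (CCE Ribo-Zero), and those of Efna5 were 2.19, 0.02 and 1.40.

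**Figure D4:**
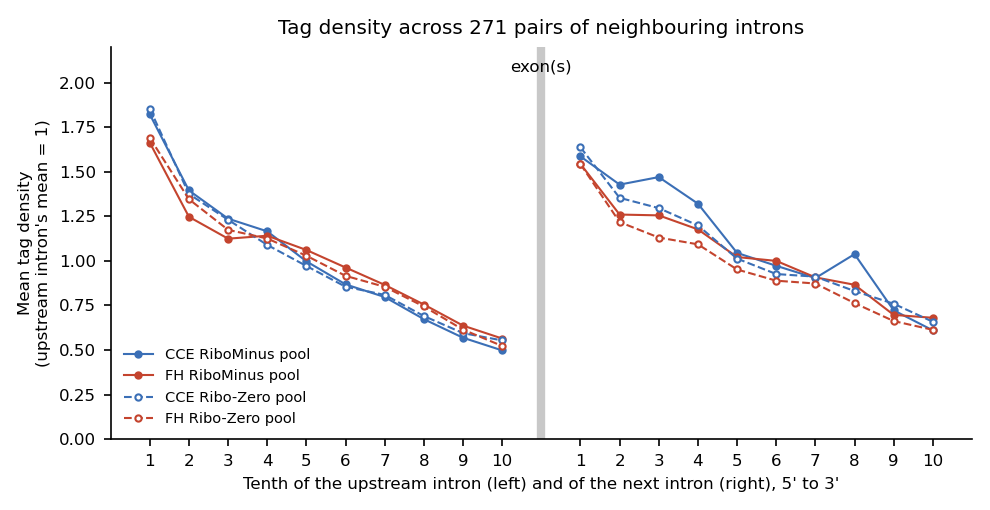
Mean tag density in each bin of 271 long introns (left) and of the next intron of the same transcript (right), relative to the mean density of the upstream intron, for 4 pools of libraries. The grey bar marks the exons between them. Density falls to between 0.498 and 0.564 in the last bin and returns to between 1.54 and 1.64 in the first bin of the next intron in all 4 pools.

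Single introns in which the shape differed between tissues were sought with the log2 ratio of density in the last 5 to the first 5 bins, tested with limma over all introns of at least 10 kb. Among 1081 long introns tested, 35 (3.24%) had a higher ratio in FH and 24 (2.22%) a lower one (adjusted p under 0.05), against 1.72% and 1.07% of the 3363 introns tested. The total of 59 depended on the samples and the filter: it was 35 without FH1s, 37 without FH2h, 38 without CCE1h, 19 with no minimum of tags and 101 with the preparations of a depleted sample summed. The preparations of the tissues did not overlap in any of the 59. This was not particular to long introns: they did not overlap either in 34 of the called introns of 10 to 50 kb (23 higher and 12 lower). The median difference was 0.24 for long introns and 0.17 for all introns.

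Among the 5 introns with the largest differences towards a higher ratio in FH, CCE tags stood mostly in the early bins in Cntn4, Xkr6 and Syn3. The tags do not tell the strands apart, so whether these early tags came from the named genes was not tested. Cntn4 intron 1, in the gene of contactin 4, a neuronal adhesion molecule, had 5.17, 2.34 and 2.71 tags per kb in its first 3 bins in CCE RiboMinus and at most 0.309 in each later bin. In FH RiboMinus the same intron still had 2.97 in the fourth and 2.65 in the sixth bin. Its log2 ratio was -4.57, -4.32, -4.17 and -3.76 in CCE1h, CCE2h, CCE1s and CCE2s, and -1.80, -1.36 and -0.93 in FH1h, FH2h and FH1s, without overlap (difference 2.84 ± 0.34, SE, limma adjusted p = 3.3e-05). Xkr6 intron 1 (difference 2.92 ± 0.27) and Syn3 intron 6, in the gene of synapsin III (2.19 ± 0.27), had the same form: in CCE RiboMinus, the density in Xkr6 fell from 11.1 in the first bin to 0.576 in the fifth. The tags of Cntnap5b intron 1 in CCE stood almost all in 1 bin, with 14.03 per kb in the second and none in 7 others. FH RiboMinus had its highest density in the same bin, with 12.8 against at most 1.73 elsewhere. Its difference of 3.00 ± 0.48 had adjusted p = 0.114 in limma when introns with few tags were also tested. In Magi2 intron 2 (a synaptic scaffold), which held 65 tags in CCE RiboMinus, the FH density rose from 1.96 to 9.07 between the sixth and seventh bins (2.32 ± 0.39), and its call was lost too when introns with few tags were also tested (adjusted p = 0.140, limma).

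The 5 introns with the largest differences towards a lower ratio in FH had their CCE tags near the 3′ end or in 1 inner stretch. Rarb intron 1 lies in the gene of retinoic acid receptor beta, which retinoic acid is known to induce. It had at most 0.10 tags per kb in each of the first 8 bins in CCE RiboMinus and then 5.20 and 2.15, while FH had 1.20 in the first bin and 0.850 and 0.650 in the last pair. Its log2 ratio was between 3.43 and 5.36 in CCE preparations and between -0.86 and -0.63 in FH (difference -5.18 ± 0.43, SE, limma adjusted p = 4.2e-07). Schip1 intron 1, with 2 annotated starts inside, had under 0.1 tags per kb in 9 bins and 4.35 in the last in CCE RiboMinus, against 5.38 in the first and 1.19 in the last in FH RiboMinus (-5.06 ± 0.26). Palld intron 2, in the gene of the actin-binding protein palladin, had 3 annotated starts and 5.93, 5.44 and 3.26 tags per kb in its last 3 bins in CCE RiboMinus (-4.11 ± 0.45). In Alk intron 3 and Slc24a2 intron 2 the CCE tags stood in 1 bin, the seventh (11.7) and the eighth (10.8). FH RiboMinus was also highest in these bins, with 4.92 in Alk and 4.00 in Slc24a2. With the last 3 against the first 3 bins the difference for Alk was -0.50 (adjusted p = 0.644, limma). Slc24a2 had adjusted p = 0.116 in limma when introns with few tags were also tested.

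Most long introns had a higher level in FH. By limma on log2(CPM + 0.5), where CPM are tags scaled to library size, 1640 of 2141 tested (76.6%) were higher in FH and 25 (1.17%) lower, against 50.7% and 2.99% of the 8090 introns of at least 10 kb tested. The median difference was 2.23 for long introns and 1.10 for all. Because FH libraries held more intron tags, the same test was run scaled to intron tags: then 1170 (54.6%) were higher and 387 (18.1%) lower, against 25.4% and 30.9% of all introns tested, and the medians were 0.96 and -0.17. The filter asked for 50 tags over all RiboMinus libraries together, so an intron could pass through its tags in 1 tissue, and 1038 of the 2141 had under 50 tags in CCE RiboMinus. Of the other 1103, 664 (60.2%) were higher in FH and 22 lower.

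The 5 largest differences were in introns that were nearly without tags in CCE. All 5 passed the filter through their FH tags, so they had to differ to be tested. Nrg3 intron 1 (460 kb, neuregulin 3) had 3, 3, 0 and 1 tags in the CCE preparations and 1830, 1818 and 435 in FH1h, FH2h and FH1s (log2 difference 8.61 ± 0.45, SE). Dcc intron 1 (the netrin receptor) had 2 to 4 tags in CCE and 593 to 2631 in FH. Cntnap2 intron 1, Nrxn3 intron 17 and Bai3 intron 2, in genes of a contactin-associated protein, a neurexin and an adhesion receptor, had differences of 8.39, 8.33 and 8.29. The pseudocount makes these differences too small, and their size depends on it.

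In the other direction, the 5 largest differences were smaller. Actn1 intron 1 had 401, 300, 124 and 263 tags in CCE1h, CCE2h, CCE1s and CCE2s, and 63, 58 and 26 in the FH preparations (difference -2.37 ± 0.43, SE, limma adjusted p = 7.2e-06). In the Ribo-Zero libraries the tissues were closer in this intron, with 0.705 (CCE) and 0.473 (FH) RPKM from 1023 and 1157 tags. Rbpms intron 1 (-2.77 ± 0.43), Gpr39 intron 1 (a zinc-sensing receptor, -3.07 ± 0.50) and 0610012H03Rik intron 3 (-2.32 ± 0.45) were among them too. The introns of Gpr39 and 0610012H03Rik passed the filter through their CCE tags, so they had to differ to be tested. In the first bin Gpr39 had 1.49 (CCE) and 0.0515 (FH) tags per kb after RiboMinus, and 0610012H03Rik had 1.49 and 0. The exons of Actn1 and Rbpms were lower too, with 13.5 against 78.9 and 3.70 against 48.9 RPKM in the RiboMinus pools.

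The level difference of a long intron went with that of its gene's exons. Its median was larger, but intron and exon values had different units and pseudocounts. Over 1340 introns of 835 genes tested in both, the log2 differences had r = 0.857 (rho = 0.866), where introns of one gene share an exon value and both come from the same preparations. Intron and exons were both higher in FH in 647 cases and both lower in 21, 41 introns were higher while the exons were lower, and none were lower with higher exons. Of 10008 genes, 19.9% had higher and 34.9% lower exon RPKM in FH by limma. Many of these introns had few tags in CCE. Over the 852 with at least 50 tags in CCE RiboMinus, r was 0.776 (rho = 0.749), both were higher in 227 cases and both lower in 21, and 38 introns were higher while the exons were lower. The median log2 difference was 1.84 in introns and 0.63 in exons over the 1340, and 1.26 and 0.07 over the 852. It was 1.10 over all introns of at least 10 kb tested and -0.34 over the exons of all genes tested. A larger median in introns was thus not particular to long introns. Scaled to intron tags, the median was 0.96 for long introns tested and -0.17 for all introns tested. The 41 introns that were higher with lower exons were counted without this scaling.

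The gene lists, drawn up with earlier results of these data known, describe where long introns lie. Neuronal adhesion and axon guidance genes had a long intron in 65 of 67 genes, 210 introns in all, of which 187 of 189 tested were higher in FH and none lower. Of these 189, 138 had under 50 tags in CCE RiboMinus, and 49 of the other 51 were higher. Ctnna2 intron 8 (alpha-N-catenin) had 42 tags in CCE RiboMinus and 7804 in FH RiboMinus, and Odz2 intron 2 (a teneurin) 111 and 6437. Synaptic receptor, channel and scaffold genes had 178 long introns, with 150 of 154 higher in FH (26 of the 29 with at least 50 tags in CCE RiboMinus), among them Kcnd2 intron 1, a potassium channel, with 24 and 2815 tags. Brain transcription factors had 90, with 72 of 88 higher (43 of 59 with the CCE minimum), and large broadly expressed or fragile site genes 172, with 102 of 151 higher (56 of 103 with it). Kcnq5 intron 1, a synaptic list member, had 1092 tags in CCE RiboMinus and 1698 in FH (difference 1.01 ± 0.49, limma adjusted p = 0.073), and Ext1 intron 1, a heparan sulphate synthesis gene, 2282 and 3576 (1.05 ± 0.53, limma adjusted p = 0.088). These counts are to be read against the 76.6% of all long introns tested that were higher, and those with the CCE minimum against 60.2%. They describe the lists and were not tested.

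The fall of density was seen in each list. Slopes were below 0 in FH Ribo-Zero in 50 of 51 adhesion introns that passed the limits (median -0.153), 25 of 26 synaptic introns (-0.145), 57 of 59 introns of brain transcription factors (-0.111) and 97 of 101 of the large gene list (-0.127), beside a median of -0.117 in all 1069. In CCE Ribo-Zero the medians were -0.167, -0.157, -0.124 and -0.138, and -0.136 in all. The ratio of the last 5 to the first 5 bins was higher in FH in 2 of 51 adhesion, 5 of 28 synaptic, 3 of 59 transcription factor and 0 of 101 large gene introns, and lower in 1, 2, 1 and 2 of them, where 3.24% of all long introns tested were higher and 2.22% lower. Genes of the splicing and elongation machinery held no long intron. Of their 61 tested exon levels 2 were higher and 23 lower in FH, where 19.9% and 34.9% of all genes were, with a median of -0.62 beside -0.34 for all genes.

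Inside some long introns the density rose within a short distance, as at the start of a new intron. Rises were measured as the log2 ratio of the density in the 15 kb after a position to that in the 15 kb before it, a measure chosen after the values had been seen, so that no test is given. In steps of 1 kb, the largest rise within an intron in FH Ribo-Zero was under 0 in 89 of the 1069 introns, 0 to 1 in 704, 1 to 2 in 221 and at least 2 in 55 (5.15%). Of these 55, 18 had an annotated start on the same strand within 5 kb of the position, and 4 had the letters AGGTAAGT within 2 kb, each with a pyrimidine-rich stretch before them. The reverse complement of the letters stood at 5 of the 55 (9.09%), against 7.27% for the sense letters, and the sense letters stood at 5 of the 89 positions (5.62%) with a rise under 0. None of the introns with smaller rises had such a stretch at their position.

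The letters stood in the sense strand at 2133 places at least 15 kb from both ends of a long intron, and 41 of these had at least 16 pyrimidines among the 20 bases before the AG. In FH Ribo-Zero the density at least doubled at 8 of the 36 such places with 50 tags or more (22.2%), at 54 of 1407 (3.84%) with fewer than 12 pyrimidines, and at 0 of 47 pyrimidine-rich places on the opposite strand. In CCE Ribo-Zero the shares were 4 of 16, 19 of 517 and 2 of 15. In FH RiboMinus they were 7 of 25, 55 of 876 and 3 of 31, and in CCE RiboMinus 2 of 10, 11 of 263 and 0 of 4. The median over all 36 pyrimidine-rich sense places was -0.08, beside -0.21 for pyrimidine-poor ones, so most of the places showed no rise. In the RiboMinus preparations the summed log2 rise at pyrimidine-rich sense places was 0.19, 0.23, 0.19 and -0.45 in CCE1h, CCE2h, CCE1s and CCE2s (10 places) and 0.15, 0.15 and 0.64 in FH1h, FH2h and FH1s (25 places). At pyrimidine-poor places it lay between -0.23 and -0.17 in all 7.

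The places that doubled were in Cadm1, Robo2, Ank3 (at 2 places), Cdh4, Tpd52l1, Kcnip1 and 2610528E23Rik. In Cadm1 intron 1 the 15 kb before the place 103 kb from the 5′ end held 340 tags in FH Ribo-Zero and the 15 kb after it 1798, a log2 rise of 2.40. In CCE Ribo-Zero they held 51 and 312 (2.59), in FH RiboMinus 64 and 121 (0.91) and in CCE RiboMinus 33 and 75 (1.16), so both tissues rose at the same place. All 20 bases before the AG are pyrimidines there, as printed above. The other 3 matches in this intron, with 9 to 12 pyrimidines, had log2 changes of -0.92, -0.01 and -1.90 in FH Ribo-Zero.

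Robo2 intron 2, in the gene of an axon guidance receptor for Slit proteins, rose from 341 to 1724 tags at 201 kb in FH Ribo-Zero (2.33) and from 16 to 74 in CCE Ribo-Zero (2.14). In Ank3 intron 1, in the gene of ankyrin-G of the axon initial segment, both places lie within 5 kb of each other, at 56.1 and 60.8 kb, and their windows overlap. The density there rose from 415 to 1535 and from 450 to 1821 tags in FH Ribo-Zero (1.88 and 2.01), and Ank3 had only 205 tags in the whole intron in CCE Ribo-Zero. Another match at 61.5 kb, with 11 pyrimidines and windows that overlap those of the other two, rose from 554 to 1775 (1.68). Hs6st3 intron 1 rose from 41 to 336 tags at 399 kb (3.00), at a place with 15 pyrimidines, and from 74 to 177 (1.25) at another match with 7. The largest rise in this intron (3.42) was at 396000 bases, where no match lay within 2 kb. None of these places in Cadm1, Robo2, Ank3 and Hs6st3 lay within 50 kb of an annotated start on the same strand. Starts on the other strand were not looked at, and the tags do not tell the strands apart.

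Among the other genes, Cdh4 intron 2 (a cadherin) rose from 89 to 442 tags in FH Ribo-Zero (2.22), Tpd52l1 intron 1 from 74 to 302 (2.01) and 2610528E23Rik intron 1 from 57 to 292 (2.34). Tpd52l1 and 2610528E23Rik also rose in CCE Ribo-Zero, from 83 to 253 and from 14 to 73 tags. Kcnip1 intron 1, in the gene of a potassium channel partner, rose from 116 to 273 (1.29) in FH Ribo-Zero and had 2 tags there in CCE Ribo-Zero.

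**Figure D5:**
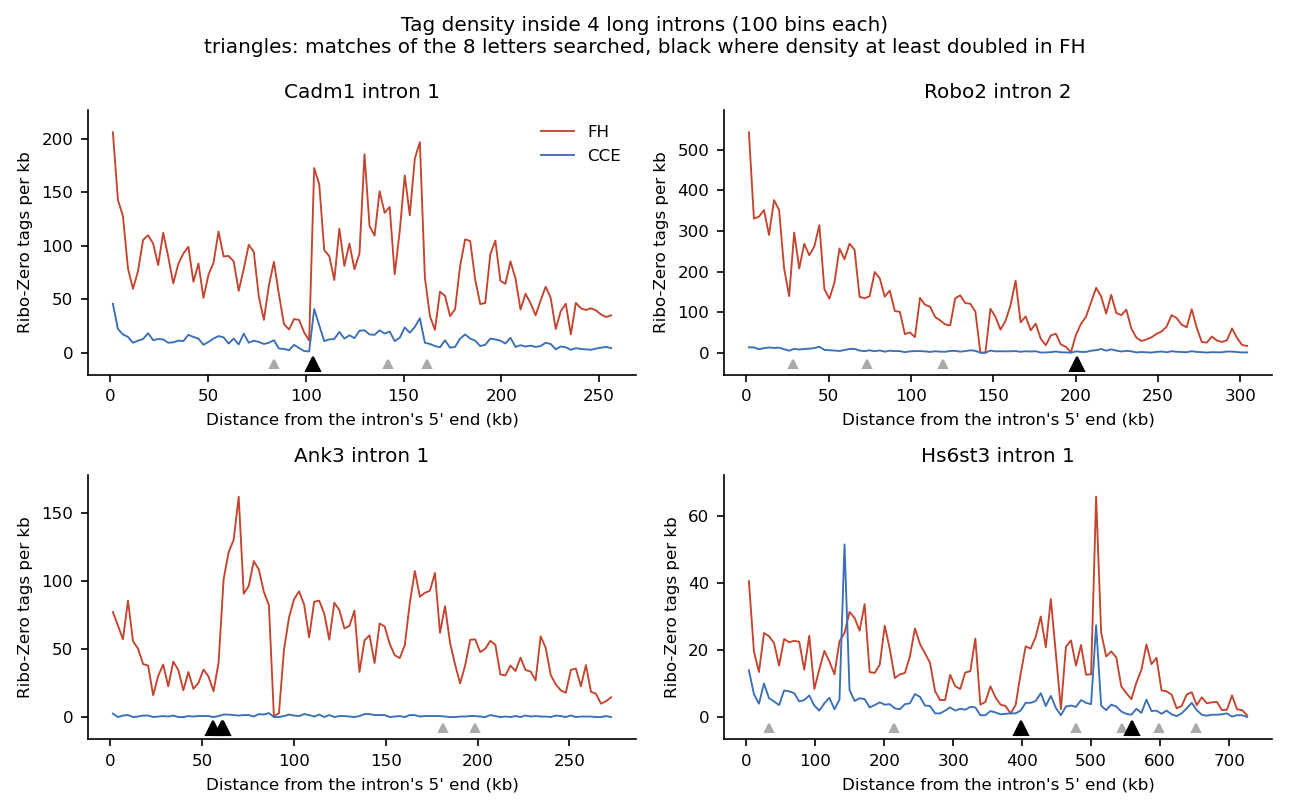
Ribo-Zero tags per kb in 100 bins along 4 long introns, against the distance from the 5′ end in kb, for FH (red) and CCE (blue). Triangles mark sense matches of the 8 letters at least 15 kb from the ends, in black where the density over 15 kb windows at least doubled in FH. The largest log2 rises at a triangle are 2.40 in Cadm1, 2.33 in Robo2, 2.01 in Ank3 and 3.00 in Hs6st3.

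The list of 9 genes with recursive splice sites in human brain held 15 long introns in 8 genes, and 13 of 15 were higher in FH (5 of the 7 with at least 50 tags in CCE RiboMinus), beside 76.6% of all long introns tested and 60.2% of those with the CCE minimum. Of the 7 that passed the limits for slopes 6 fell in FH Ribo-Zero. Besides Cadm1, Robo2, Ank3 and Hs6st3 the list held introns without a doubling at a match in FH Ribo-Zero. Magi1 intron 1, in the gene of a junction scaffold, fell from 65.9 to 12.5 tags per kb over its bins in FH Ribo-Zero, and its 3 matches, with at most 13 pyrimidines, had changes of -0.18, -0.28 and -0.68. Cadm2 intron 1 (737 kb) had its largest rise, 2.75, at 256000 bases from its 5′ end and Pde4d intron 1 its largest, 2.78, at 299000 bases, and no sense match lay within 2 kb of either. Pde4d intron 1 also held 2 pyrimidine-rich sense matches with rises of 0.50 and 0.38 in FH Ribo-Zero, the second of which rose from 22 to 167 tags (2.87) in FH RiboMinus. Opcml introns 1 to 3 had largest rises of 0.98, 0.56 and 1.58, without a match within 2 kb.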

How the data were processed

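The authors deposited tag positions (start and end of each unique tag, with no score used here) on mm9. Per the labels and the study's methods, reads of 36 nt (RiboMinus) or 51 nt (Ribo-Zero) were mapped with Bowtie (version not given in the sources used here) with 2 or 3 mismatches, splice junctions were not mapped, and tags in rRNA were removed, with mitochondrial tags removed too after RiboMinus but not after Ribo-Zero, where they remain in the library totals used here. The tags carry no strand of the RNA.

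From these files, tag midpoints were counted in 10 exon-free bins of equal length along introns of GENCODE M1. Introns entered profiles with at least 50 tags in each of 4 pools and 20% exon-free sequence in each bin, which left out 23 long introns. Both runs of a cDNA preparation were summed. Slopes and steps were compared with exact permutation tests over preparations, and single introns and exons with limma 3.58.1 (R 4.3.3) on log2 values, with pseudocounts of 1 tag (ratio), 0.5 CPM (level) and 1 RPKM (exons) and Benjamini-Hochberg adjustment. The slope code was tested on simulated data. The interval of the Ribo-Zero difference covers counting error only, since 1 library per tissue gives no spread. The reads carry no molecular identifiers, so repeated tags count as independent and the interval may be too narrow.

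Introns were named as the 5 longest, the 5 with most tags per kb in each tissue, the 5 with the largest called difference in each direction, and list members. The members and gene lists were chosen with earlier results of these data known, and the search for inner rises and the limit of 16 pyrimidines were chosen after values had been seen. Sequences were read from mm9. Samples without a file here were not analysed. Some introns that this rule named are not reported here.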

Additional observations from a re-analysis of the deposited data

Results flagged for a closer look

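In groups of 4 preparations, a value was marked where its gap to the nearest other value, as a share of the range of the group, passed Dixon's 95% limit, which chance gives in about 1 of 20 groups. Among 44 groups tested 3 were marked, all at the low end of CCE. CCE2s had the steepest slope of long introns, -0.135, while the other 3 CCE preparations had -0.127 to -0.128. In single libraries (Vienna-IMP, then Nijmegen) the slopes were -0.129 and -0.124 in CCE1h and -0.122 and -0.130 in CCE2h. The mark may thus depend on the hydrolysed CCE labels, whose order changed between locations. The level of Zmiz1 intron 6 was lowest in CCE1s, with 0.580 RPKM. The log2 rise at pyrimidine-rich sense matches was lowest in CCE2s, with -0.45, over 10 places.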

How the results depend on the processing

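Of the summary values under other settings 174 kept their direction and side of the threshold, 13 lost the threshold, 10 moved and 4 changed sign, and of the values of single introns and of the share of tags in long introns 336 kept the call and 11 lost it, 7 of them the share without one preparation (FH to CCE 3.39 to 4.54), where the smallest possible p is 0.0667 or 0.1. The slope difference between tissues was 0.0297 with hydrolysed preparations only (p = 0.333, exact permutation test, the smallest that 2 against 2 allow) and 0.0264 to 0.0313 without one preparation, where p cannot pass the threshold. With the hydrolysed and sheared preparations of one depleted sample summed (2 per tissue, chosen after the data were seen), it was 0.0301 (p = 0.333), the slopes were -0.129 (CCE) and -0.0989 (FH), long minus shorter introns gave -0.0517 and the step was 1.52, each with p = 0.125 (exact sign-flip test, the smallest that 4 allow), and 101 introns had a changed ratio. In Ribo-Zero the slope difference was 0.000688 with tags summed, 0.0136 over bins 2 to 9, 0.0198 with repeated positions counted once and 0.14 as a log2 ratio of the ends. It was 0.0188 with intergenic density subtracted, in introns with a density above a multiple of it. The hydrolysed minus sheared slope was -0.000292 over bins 2 to 9, and 0.00323 to 0.0180 without one preparation. The FH minus CCE step was 0.0641 (log2) in Nijmegen libraries only, 0.000865 with hydrolysed numbers crossed, and -0.0589 to 0.0197 without one preparation. Without one preparation the other ranges were 35 to 67 for introns with a changed ratio (59 with all, 38 without CCE1h, 37 without FH2h, 35 without FH1s), 1457 to 1703 for changed levels, 4602 to 5601 for exons, -0.0520 to -0.0441 for long minus shorter introns, 1.49 to 1.53 for the step, -0.130 to -0.127 for CCE and -0.103 to -0.0982 for FH. With no minimum of tags 19 introns had a changed ratio, and Cntnap5b, Magi2 and Slc24a2 lost the call (adjusted p = 0.114, 0.140 and 0.116, limma). With the hydrolysed numbers crossed at Nijmegen 48 had one. Apart from the tests that cannot pass with fewer preparations, the cause of these changes was not tested. Replicate numbers did not pair the samples, as deviations of same-numbered samples correlated between -0.139 and 0.200 and 2 of 6 matched their own number best; with the number as a block the slope difference was 0.0252 (p = 0.03125, exact sign-flip test over 6 pairs of libraries, in which both runs of a preparation count although only 3 pairs of preparations exist), 70 introns had a changed ratio, 1846 a changed level and 7335 genes changed exons. Depth limits the CCE RiboMinus pool most, where the median intron had 155 tags.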
